A study of Mus musculus with 12 samples.

Results

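The genes described here are the 37 genes of the oligodendrocyte lineage and of myelin in a fixed list, out of 19312 genes measured in the mouse forebrain. The list was set by gene symbol and holds 6 roles: genes of precursors and newly committed cells, lineage transcription factors, proteins of the myelin sheath, enzymes of myelin lipids, gap junction connexins and other genes enriched in oligodendrocytes. All 37 were found in the table and all 37 passed the filter of a mean value of at least 10. RNA was sequenced from 12 male mice aged P25 (postnatal day 25) on a C57BL/6N background, 3 in each of 4 groups, and each library came from 1 mouse. WT mice carried intact Shank2, and KO mice carried a homozygous germline deletion of Shank2 exons 6 and 7, present in every cell type, where Shank2 encodes a scaffold of excitatory synapses. Memantine, a blocker of NMDA-type glutamate receptors, was given by mouth at 20 mg/kg, 2 times a day, from P7 to P21 in a saccharin solution (Mem), and the other mice received 0.1% saccharin alone (Veh), so that tissue was taken 4 days after the last dose. The groups are called WT-Veh and WT-Mem for intact mice and KO-Veh and KO-Mem for mutant mice. The labels name the tissue as whole brain, whereas the methods describe a forebrain from which the cerebellum and brain stem had been cut away. The comparisons ask whether the deletion, the early treatment, or both changed the transcriptome.

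Oligodendrocytes wrap axons of the central nervous system in myelin, a stack of membrane sheets rich in galactolipids and held together by a small set of very abundant proteins. They arise from dividing precursors that carry the receptor Pdgfra. Precursors that commit switch on Gpr17, Enpp6 and Bcas1 for a short time, and then, under the transcription factors Olig1, Olig2, Sox10, Nkx6-2 and Myrf, turn on the genes of the sheath. In the mouse forebrain, myelin is being laid down quickly in the weeks after birth, which include the treatment window and the day of collection. Neuronal activity and glutamate receptors on the lineage cells are both known to influence this process.

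The values are normalized counts, which are read counts estimated per gene and divided by a factor that corrects each gene in each library for depth and transcript length, so that they can be compared between mice. They summed to between 30373849 and 31199251 per mouse, and because raw counts were not used here the sequencing depth of each library is unknown. The Shank2 value was 7156 to 8548 in WT mice and 2706 to 3178 in KO mice, so every library matched its genotype label. KO-Veh replicate 3 stood apart in genes of the cerebellum. Its Gabra6 value was 254, whereas the other 11 mice had at most 12.9. The genotype results are also given without this mouse. WT-Veh replicate 3 had the largest share of its values in its 10 highest genes, 6.1% against 4.35% to 5.04% in the other mice. No 2 libraries held identical values.

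No member was at 0 in any mouse, and the lowest single value was 199.7, for Gjb1. Levels can be compared between genes only per length. The length used here joins the exons of all annotated transcripts, 7 for Mobp and 1 for Cldn11, so close ranks are uncertain. On that scale (mean normalized count over the 12 mice per kilobase of exon) Mbp, the protein that seals the inner faces of the myelin membrane, was highest at 15572. It was followed by Mobp at 5755 and Cldn11 at 5667, a second structural protein of compact myelin and the tight junction protein of the sheath. Cnp at 5262 and Mal at 4966 came next. The highest genes of the other roles were Olig1 at 2276, Trf at 2076, Gpr17 at 978, Ugt8a at 879 and Gjc3 at 417, and the lowest member of all was Aspa at 84.3. Together the 37 genes made up 0.801% to 1.298% of all normalized counts of a mouse, with the lowest share in KO-Mem replicate 1 and the highest in WT-Veh replicate 3.

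Across the 4 groups most members shared a common order. The KO-Mem mean was the lowest of the 4 group means for 31 of the 37 genes, the WT-Veh mean was the highest for 30, and both held for 28. Ordering from KO-Mem through KO-Veh and WT-Mem up to WT-Veh occurred for 20 genes. Relative to the WT-Veh mean, WT-Mem means ran from 75.3% (Aspa) to 103.6% (Gpr17) with a median of 89.0%, KO-Veh means from 68.6% (Gjb1) to 102.9% (Tspan2) with a median of 84.9%, and KO-Mem means from 47.4% (Gjb1) to 106.9% (Nkx6-2) with a median of 70.9%. The mean log2 deviation of the 37 genes from their 12-mouse means was 0.14 to 0.29 in WT-Veh mice, -0.03 to 0.14 in WT-Mem, -0.02 to 0.01 in KO-Veh and -0.45 to -0.16 in KO-Mem. By this mean the KO-Mem mice lay below all others and the WT-Mem and KO-Veh mice overlapped. KO-Mem replicate 1 was the lowest of the 12 mice for 27 genes, and WT-Veh replicate 3 was the highest for 22. Members that move together within a mouse are not independent, so the counts of members given below are not counts of separate results. The median log2 deviation of short genes minus that of long genes (the shortest and the longest of 3 equal classes of exon length) moved with the members. It ran from -0.07 in KO-Mem replicate 1 to 0.18 in WT-Mem replicate 3, with 0.11 in WT-Veh replicate 3, and in each of the 4 groups it ordered the 3 mice as the members' mean deviation did. In WT-Veh replicates 1 to 3 it was -0.03, 0.07 and 0.11, and in the KO-Mem replicates -0.07, -0.05 and -0.01. Its part in the members' differences was not tested. In bulk tissue, fewer cells of a type and less RNA per cell cannot be told apart, and this holds for every difference given here.

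**Figure D1:**
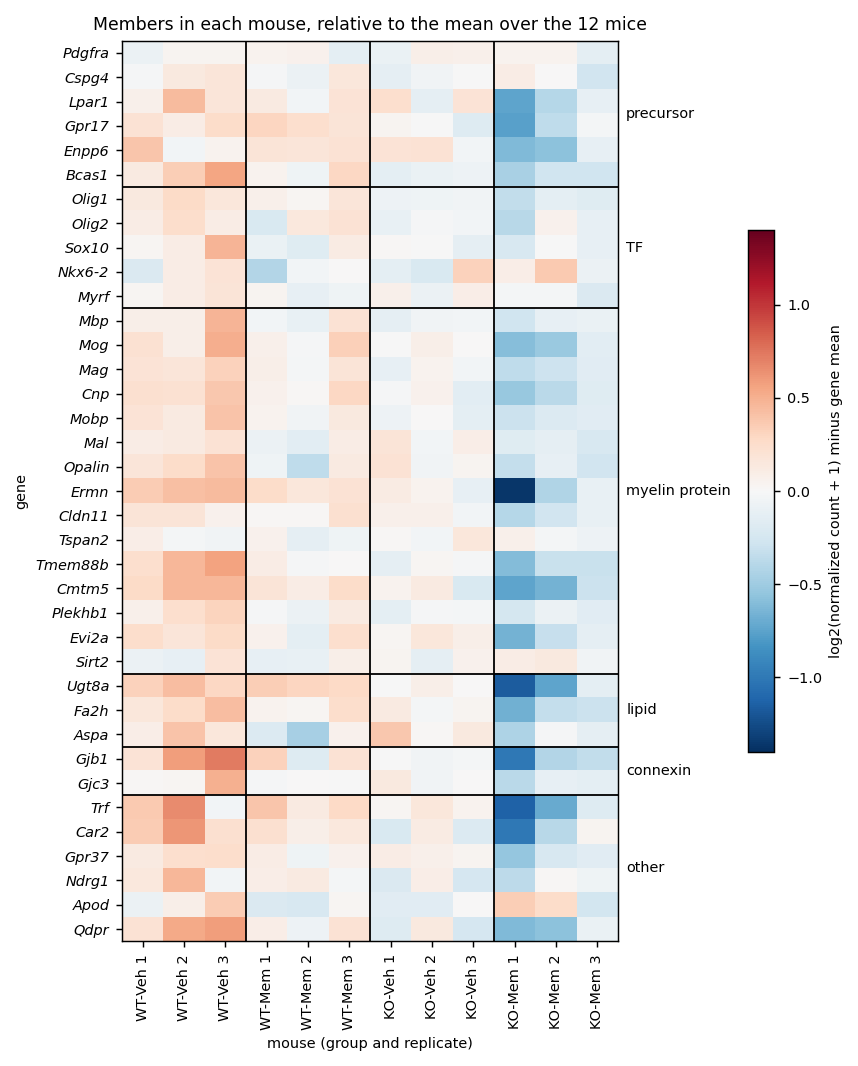
Heat map of the 37 members (rows, by role) in the 12 mice (columns, by group), where the colour gives log2(normalized count + 1) minus the mean of that gene over the 12 mice. The KO-Mem columns are mostly blue and the WT-Veh columns mostly red, with KO-Mem replicate 1 lowest for 27 genes and WT-Veh replicate 3 highest for 22, while rows such as Pdgfra, Tspan2 and Sirt2 stay pale.

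The genotype contrast set the mean of the KO-Veh and KO-Mem groups against the mean of the WT-Veh and WT-Mem groups, with limma on log2(normalized count + 1) over all genes and all 12 mice. A gene was called at a Benjamini-Hochberg adjusted p under 0.05 over all 17655 genes tested, and all changes are log2 fold changes ± SE on that scale unless another unit is given. Of the 37 members, 20 were called lower in KO mice and 0 higher. In the background of all tested genes, 10.5% were called, 5.73% lower and 4.79% higher. The median change of the members was -0.28, whereas the median over all genes was 0.0035. The 32 members with a negative change compare with 49.1% of all genes, and 5 members (Gpr17, Bcas1, Olig1, Ermn and Ugt8a) had every KO mouse below every WT mouse, compared with 2.2% of all genes. By role, 3 of 6 precursor and committed-precursor genes, 1 of 5 transcription factors, 9 of 15 sheath proteins, 2 of 3 lipid enzymes, 1 of 2 connexins and 4 of 6 other genes were called lower.

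These calls depended on which mice were in the fit. Leaving out KO-Veh replicate 3 left 13 members called, with 2.99% of all genes. Leaving out any other single mouse left 14 to 23, with 3.54% to 18.5% of all genes. The 23 came without KO-Mem replicate 3, where the share was 18.5%. Without both WT-Veh replicate 3 and KO-Veh replicate 3, an alternative chosen after the data were seen, 4 members were still called (Bcas1, Olig1, Tmem88b and Cmtm5), with 0.42% of all genes, and all 20 called members stayed below 0. Of the 20, 13 were called in each of the 12 fits that left out 1 mouse, and all 20 kept a negative sign in each. The others were Trf, called in 11 of these fits, Ermn in 9, Cldn11, Plekhb1 and Car2 in 8 each, Gpr37 in 4 and Enpp6 in 1.

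**Figure D2:**
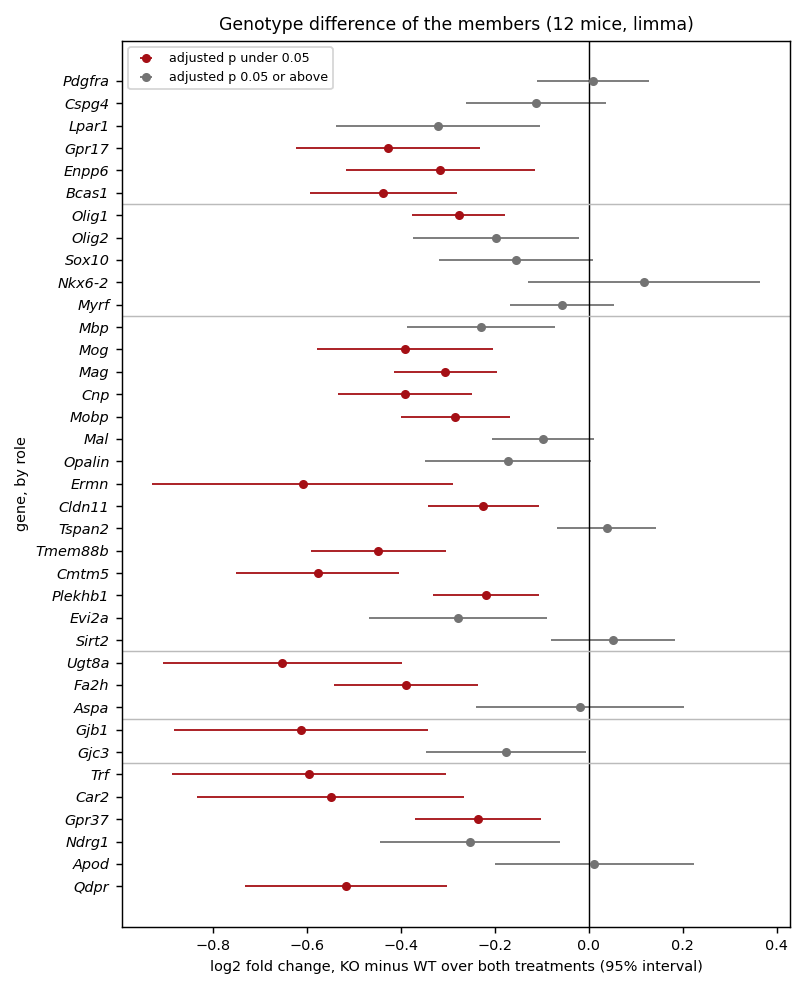
Log2 fold change of each member between KO and WT mice over both treatments (points) with 95% confidence intervals (lines), ordered by role, from limma on 12 mice. The 20 red points are the members with an adjusted p under 0.05, all to the left of 0, from -0.65 (Ugt8a) to -0.22 (Plekhb1), and Pdgfra, Tspan2, Sirt2, Apod and Aspa lie close to 0.

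Among genes of the precursor stage, the receptor that defines precursors was not called for genotype, and Gpr17, Bcas1 and Enpp6, which mark commitment, were called lower in KO mice, Enpp6 in few of the fits that left out 1 mouse. Pdgfra, which encodes the receptor for platelet-derived growth factor (chr5:75152292-75198215, + strand, GRCm38), had normalized counts of 2080.3, 2267 and 2257 for WT-Veh, 2287, 2295 and 2005 for WT-Mem, 2070.2, 2324 and 2321 for KO-Veh, and 2286, 2284 and 1997 for KO-Mem, with replicates 1, 2 and 3 of each group in that order here and in every such list. The 4 groups overlapped throughout, and the genotype change was 0.01 ± 0.06 (adjusted p = 0.932) with a 95% interval of -0.11 to 0.13. Cspg4, the proteoglycan NG2 of the same cells, ranged from 866 to 1172 over the 12 mice and also missed the threshold, with a change of -0.11 ± 0.07 (adjusted p = 0.296).

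Gpr17 is a receptor found on precursors that have committed and not yet made myelin. Its values were 5719, 5369 and 5978 for WT-Veh, 6134, 5892 and 5657 for WT-Mem, 5107, 4978 and 4403 for KO-Veh, and 2953, 3899 and 4906 for KO-Mem. All 6 KO mice lay below all 6 WT mice, the treated and untreated WT mice overlapped, and KO-Mem replicate 1 was the lowest. The genotype change was -0.43 ± 0.09 (adjusted p = 0.0153), a fall in KO mice.

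Bcas1 marks oligodendrocytes that are about to myelinate (chr2:170346991-170427845, - strand). It measured 3681, 4274 and 4942 for WT-Veh, 3482, 3223 and 4110.3 for WT-Mem, 3059, 3158 and 3189.9 for KO-Veh, and 2446, 2779 and 2772 for KO-Mem. Here too the KO mice lay below the WT mice without overlap, at -0.44 ± 0.07 (adjusted p = 0.00773), and the KO-Mem mice lay below the KO-Veh mice. Part of its exon length, 11.7%, overlaps the annotated gene Bcas1os1.

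Enpp6, a choline phosphodiesterase of newly forming oligodendrocytes, showed a different layout from Gpr17 and Bcas1. Its values were 1105, 824 and 873 for WT-Veh, 954, 946 and 972 for WT-Mem, 962, 973 and 821 for KO-Veh, and 551, 565 and 779.8 for KO-Mem. The KO-Veh mice overlapped the WT mice and only the KO-Mem mice lay below all others. The genotype contrast called it lower, at -0.32 ± 0.09 (adjusted p = 0.0457), and the 2 parts of that contrast were -0.02 in vehicle and -0.62 in memantine mice. The call held in 1 of the 12 fits that left out 1 mouse, where the largest adjusted p was 0.118. Lpar1, a receptor for lysophosphatidic acid, measured 1402, 1815 and 1509 for WT-Veh, 1462, 1306 and 1529 for WT-Mem, 1572, 1229.99 and 1528 for KO-Veh, and 799.8, 1011 and 1233 for KO-Mem. KO-Mem mice were the lowest apart from KO-Veh replicate 2, which was level with KO-Mem replicate 3, and its genotype change of -0.32 ± 0.10 (adjusted p = 0.0565) missed the threshold.

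**Figure D3:**
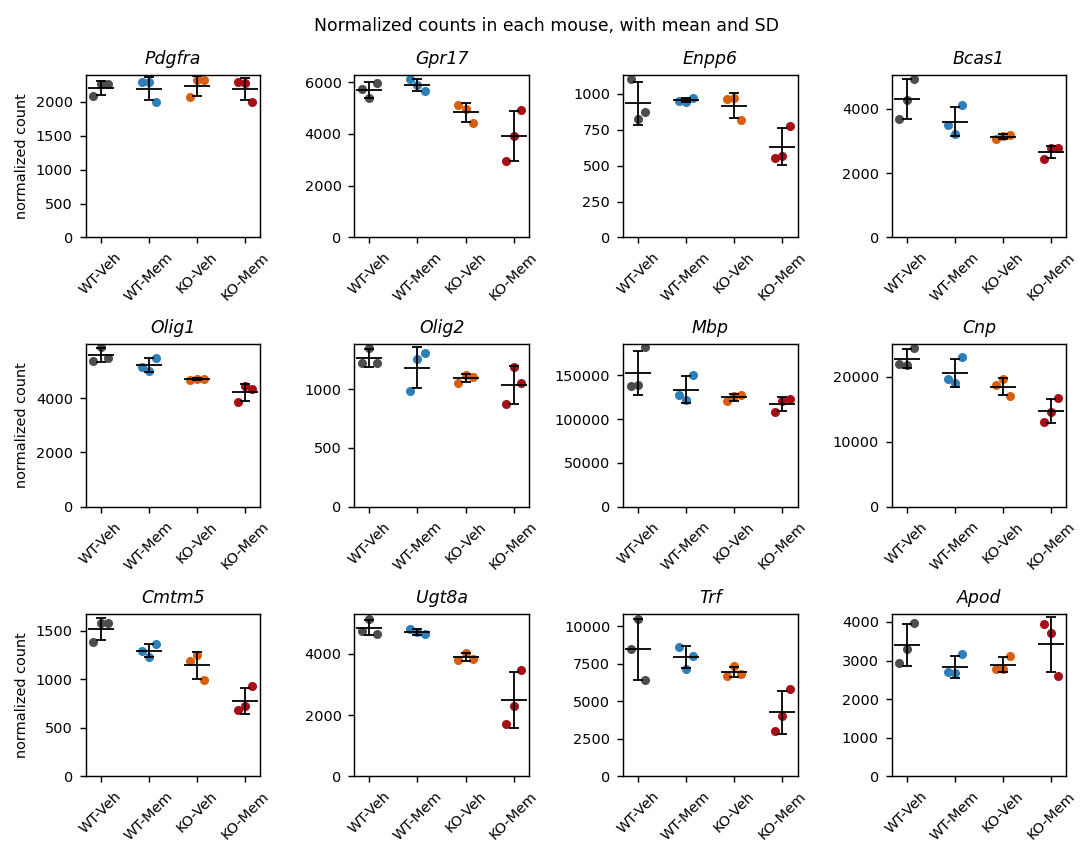
Normalized counts of 12 members in each of the 12 mice (points, coloured by group), with the group mean and SD (black). Every axis starts at 0. Pdgfra and Apod overlap between all groups, Enpp6 is lower in KO-Mem mice alone, and Bcas1, Olig1 and Ugt8a have all KO mice below all WT mice.

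Of the transcription factors that drive the lineage, Olig1 was called. Olig1 (chr16:91269772-91271933, + strand) encodes a basic helix-loop-helix factor needed for maturation and myelin repair, and its values were 5374, 5879 and 5476 for WT-Veh, 5136, 4987 and 5481 for WT-Mem, 4668, 4705 and 4712 for KO-Veh, and 3837, 4436 and 4347 for KO-Mem. The KO-Veh mice were almost identical to each other, every KO mouse was below every WT mouse, and the change was -0.28 ± 0.05 (adjusted p = 0.00766). Its partner Olig2, which specifies the lineage, measured 1219.8, 1347 and 1217 for WT-Veh, 981, 1255 and 1309 for WT-Mem, 1055, 1122 and 1105 for KO-Veh, and 869, 1183 and 1050.4 for KO-Mem. WT-Mem replicate 1 and KO-Mem replicate 1 were the lowest, the genotypes overlapped, and the change of -0.20 ± 0.08 (adjusted p = 0.129) was not called.

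Sox10, the factor that works with Olig2 and Myrf on myelin genes, was not called either, with values from 1697 to 2753 and a genotype change of -0.15 ± 0.08 (adjusted p = 0.193). Myrf, the factor that starts and maintains myelin gene expression, measured 2867, 3014 and 3178 for WT-Veh, 2889, 2591 and 2706 for WT-Mem, 2961, 2666 and 2994 for KO-Veh, and 2764, 2749 and 2439.6 for KO-Mem. Its groups overlapped and its genotype change was -0.06 ± 0.05 (adjusted p = 0.482), with an interval of -0.17 to 0.05. Nkx6-2, a homeodomain factor, had the largest positive genotype change of the 37 members, 0.12 ± 0.12 (adjusted p = 0.528), and was not called. It measured 400.1, 494 and 525 for WT-Veh, 347, 448 and 461 for WT-Mem, 419, 397 and 577 for KO-Veh, and 489.6, 593 and 435 for KO-Mem. The highest values were in KO-Mem replicate 2 and KO-Veh replicate 3 and the lowest in WT-Mem replicate 1, with overlap between all groups, and 12.9% of its exon length overlaps Inpp5a on the other strand.

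The proteins of the sheath held 9 of the 20 calls. Mbp, the most abundant member, was just outside the threshold. It measured 138107, 138161 and 181570.4 for WT-Veh, 127430.3, 121242 and 150471 for WT-Mem, 120044, 126700.02 and 126982 for KO-Veh, and 108062, 120814 and 122932 for KO-Mem. WT-Veh replicate 3 was well above all other mice, KO-Mem replicate 1 was the lowest, and the genotype change was -0.23 ± 0.07 (adjusted p = 0.0594) with an interval of -0.39 to -0.07. Mobp (chr9:120149707-120181484, + strand), which like Mbp lies in compact myelin, measured 44539, 42719 and 51614 for WT-Veh, 40342, 37720.03 and 43073 for WT-Mem, 37213, 39341 and 35511 for KO-Veh, and 31679.6, 34301 and 34961 for KO-Mem. Only KO-Veh replicate 2 reached the range of the WT mice, and Mobp was called lower, at -0.28 ± 0.05 (adjusted p = 0.0106).

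Cnp, an enzyme and scaffold of the uncompacted cytoplasmic channels (chr11:100574904-100591729, + strand), measured 21979.6, 21891 and 24464 for WT-Veh, 19706, 18999 and 23014 for WT-Mem, 18694, 19682 and 17064 for KO-Veh, and 13012, 14523 and 16753 for KO-Mem. The KO-Mem mice lay below all others, KO-Veh replicate 2 overlapped the lower WT-Mem mice, and the change was -0.39 ± 0.07 (adjusted p = 0.00826). Mag, the adhesion protein on the membrane that faces the axon (chr7:30899176-30914873, - strand), measured 12788, 12591 and 14094 for WT-Veh, 11894, 11014 and 12744 for WT-Mem, 10358, 11624 and 10934 for KO-Veh, and 8762, 9176 and 10034 for KO-Mem. Its pattern resembled that of Cnp, with one KO-Veh mouse inside the WT-Mem range, and the change was -0.31 ± 0.05 (adjusted p = 0.00794). Mog, found on the outermost surface (chr17:37010743-37023398, - strand), measured 4194, 3823 and 5141 for WT-Veh, 3788, 3568 and 4544 for WT-Mem, 3617, 3834 and 3631 for KO-Veh, and 2392, 2529 and 3261 for KO-Mem. The KO-Mem mice lay below all others, the KO-Veh mice overlapped both WT groups, and the change was -0.39 ± 0.09 (adjusted p = 0.0181).

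Cmtm5, a membrane protein with a MARVEL domain (chr14:54936261-54939274, + strand), had the smallest p of all members. Its values were 1384, 1586 and 1576 for WT-Veh, 1296, 1228 and 1366 for WT-Mem, 1187, 1255 and 989 for KO-Veh, and 687, 722 and 931 for KO-Mem. The 3 KO-Mem mice were the 3 lowest, KO-Veh replicate 3 was the lowest of the other mice, and 1 KO-Veh mouse reached into the WT-Mem range. The genotype change was -0.58 ± 0.08 (adjusted p = 0.00564), with an interval of -0.75 to -0.40. Ermn, a protein of the oligodendrocyte cytoskeleton, measured 2014, 2098 and 2128 for WT-Veh, 1869.6, 1749 and 1803 for WT-Mem, 1704, 1623 and 1451 for KO-Veh, and 610.03, 1175 and 1457 for KO-Mem. All KO mice lay below all WT mice and KO-Mem replicate 1 was far below the rest, and the change was -0.61 ± 0.15 (adjusted p = 0.0245). Tmem88b, a transmembrane protein, measured 1975, 2314 and 2476 for WT-Veh, 1810.5, 1658 and 1684 for WT-Mem, 1539, 1713 and 1663 for KO-Veh, and 1105, 1354 and 1349 for KO-Mem. The 3 WT-Veh mice were the highest, WT-Mem and KO-Veh mice overlapped, KO-Mem mice were the lowest, and the change was -0.45 ± 0.07 (adjusted p = 0.00615).

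Smaller falls were called for Cldn11 and Plekhb1. Cldn11 measured 11959.9, 11917 and 10958 for WT-Veh, 10622, 10653 and 12251 for WT-Mem, 11027, 11044 and 10247 for KO-Veh, and 8007, 8716 and 9767 for KO-Mem. KO-Veh replicates 1 and 2 lay within the WT range, the KO-Mem mice lay below all others, and the change was -0.22 ± 0.05 (adjusted p = 0.0242). Plekhb1, which carries a lipid-binding pleckstrin domain, measured 6096, 6829 and 7165 for WT-Veh, 5734, 5441 and 6327 for WT-Mem, 5262, 5734 and 5671 for KO-Veh, and 4888, 5452 and 5194 for KO-Mem. The WT-Mem and KO mice overlapped, and the change was -0.22 ± 0.05 (adjusted p = 0.0232).

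The other sheath genes missed the threshold in the genotype contrast. Mal, a proteolipid of membrane rafts, measured 14715, 14929.9 and 15757 for WT-Veh, 13006, 12391 and 14714 for WT-Mem, 15558, 13361 and 14609.7 for KO-Veh, and 12166, 12575 and 11758 for KO-Mem. Its KO-Veh mice lay in the WT range and its genotype change was -0.10 ± 0.05 (adjusted p = 0.212). Opalin, a transmembrane glycoprotein, measured 875, 931 and 1027 for WT-Veh, 749, 609 and 851 for WT-Mem, 899.8, 755 and 805 for KO-Veh, and 618, 721 and 651 for KO-Mem. WT-Mem replicate 2 was its lowest mouse, and the change was -0.17 ± 0.08 (adjusted p = 0.179). Evi2a, of which 19.2% of the exon length overlaps Evi2 on the same strand, measured 646, 609.6 and 654 for WT-Veh, 568, 494 and 637 for WT-Mem, 554, 607 and 575 for KO-Veh, and 344, 433 and 499 for KO-Mem. KO-Mem replicate 1 was the lowest, and the change was -0.28 ± 0.09 (adjusted p = 0.0572). Sirt2, a deacetylase found in the sheath, measured 7402, 7216 and 8924 for WT-Veh, 7241, 7293 and 8303 for WT-Mem, 8035, 7162 and 8168 for KO-Veh, and 8426, 8608 and 7597 for KO-Mem. Its groups overlapped, with a change of 0.05 ± 0.06 (adjusted p = 0.612) and an interval of -0.08 to 0.18. Tspan2, a tetraspanin, ran from 6470.2 to 7894 with a difference of 0.04 ± 0.05 (adjusted p = 0.643).

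The enzymes of myelin lipids held the largest genotype change. Ugt8a (chr3:125865271-125938619, - strand) makes galactosylceramide, a major lipid of the sheath, and measured 4759, 5138 and 4663 for WT-Veh, 4829, 4706 and 4643 for WT-Mem, 3806, 4037 and 3819.8 for KO-Veh, and 1701, 2285 and 3483 for KO-Mem. The 6 WT mice lay between 4643 and 5138, the KO-Veh mice between 3806 and 4037, and the KO-Mem mice were lower and more spread. The change was -0.65 ± 0.12 (adjusted p = 0.00971), and without KO-Veh replicate 3 it was still called. Fa2h, which hydroxylates the fatty acids of that lipid, measured 2505, 2693 and 3026 for WT-Veh, 2324, 2291 and 2661 for WT-Mem, 2456, 2211 and 2311 for KO-Veh, and 1406, 1776 and 1824 for KO-Mem. KO-Mem mice lay below all others, KO-Veh mice overlapped WT-Mem mice, and the change was -0.39 ± 0.07 (adjusted p = 0.00971). Aspa, which frees acetate for lipid synthesis from N-acetylaspartate, ran from 358 to 650.3. It was not called, with a change of -0.02 ± 0.10 (adjusted p = 0.923).

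Gap junction connexins couple oligodendrocytes to each other and to astrocytes. Gjb1 (chrX:101376378-101385629, + strand) measured 458, 601 and 665 for WT-Veh, 503, 353 and 461 for WT-Mem, 401, 388 and 393 for KO-Veh, and 199.7, 302 and 316 for KO-Mem. WT-Veh replicate 3 was the highest and KO-Mem replicate 1 the lowest, WT-Mem replicate 2 was below the KO-Veh mice, and the change was -0.61 ± 0.13 (adjusted p = 0.0141). Gjc3 measured 1821, 1836 and 2542 for WT-Veh, 1787, 1807 and 1795 for WT-Mem, 1987, 1744 and 1804 for KO-Veh, and 1387, 1666 and 1634 for KO-Mem. A single mouse, WT-Veh replicate 3, was far above the others, and the change of -0.18 ± 0.08 (adjusted p = 0.156) was not called.

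Among the remaining oligodendrocyte genes, 4 of 6 were called lower. Trf, transferrin, which carries iron and is made by oligodendrocytes in the brain (chr9:103204001-103230444, - strand), measured 8463, 10435 and 6424 for WT-Veh, 8604, 7146 and 7977 for WT-Mem, 6680.2, 7329 and 6816 for KO-Veh, and 2989.9, 4029.5 and 5801 for KO-Mem. WT-Veh mice were spread widely, KO-Mem mice lay below all others, and the change was -0.60 ± 0.14 (adjusted p = 0.0192). Most of its exon length, 63.5%, overlaps the annotated gene Gm20425 on the same strand, so the split of reads between these 2 genes is uncertain. Car2, carbonic anhydrase, measured 4057, 4869 and 3698 for WT-Veh, 3703, 3355 and 3499.7 for WT-Mem, 2743, 3419 and 2768 for KO-Veh, and 1577, 2427 and 3246 for KO-Mem. KO-Veh replicate 2 lay within the WT-Mem range and KO-Mem replicate 3 just below it, and the change was -0.55 ± 0.13 (adjusted p = 0.0234).

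Qdpr, which regenerates tetrahydrobiopterin, measured 2543, 3200.1 and 3312 for WT-Veh, 2361, 2104 and 2547 for WT-Mem, 1955, 2436 and 1883 for KO-Veh, and 1438, 1484 and 2071 for KO-Mem. WT-Veh mice were high, KO-Mem replicates 1 and 2 were low, and WT-Mem and KO-Veh mice overlapped, with a change of -0.52 ± 0.10 (adjusted p = 0.011). An annotated gene on the other strand, Gm42413, covers 18.6% of its exon length. Gpr37, a receptor on maturing oligodendrocytes, measured 1955, 2102 and 2124 for WT-Veh, 1924, 1722 and 1865 for WT-Mem, 1929.5, 1876 and 1838 for KO-Veh, and 1229.7, 1532 and 1608 for KO-Mem. The KO-Veh mice lay within the WT range and the KO-Mem mice below all others, with a change of -0.24 ± 0.06 (adjusted p = 0.0316) that was called in 4 of the 12 fits without 1 mouse. Ndrg1 ran from 2029 to 3610.3 and Apod, a lipid carrier, from 2597 to 3981. Neither was called, with changes of -0.25 ± 0.09 (adjusted p = 0.081) for Ndrg1 and 0.01 ± 0.10 (adjusted p = 0.952) for Apod.

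The sequence before the start of these genes was read from the RefSeq promoter table of mouse build GRCm38.p6, in which 26 of the 37 members had an entry. The 250 bases before the RefSeq start were taken, on the strand of the gene. That start can differ from the gene positions given in this text, so some windows run into the gene. Among the printed windows these are Cnp, Mobp and Cmtm5, and most of the Cmtm5 window lies inside the gene. The Aspa window, which held the only E-box match, lies wholly inside the gene. It was searched on both strands for 3 short motifs, the SOX core ACAAAG, the E-box CAGCTG bound by basic helix-loop-helix factors, and the MYRF-type sequence CTGGCAC or CTGGTAC. The SOX core was present in 6 of 26 members (23.1%), against 16.5% of all 27025 promoters of the same length. The E-box was present in 1 (3.85%), against 12.7% of all promoters, and a MYRF-type match in 4 (15.4%), against 5.88%. Mag and Cnp held both a SOX core and a MYRF-type match, and Mobp held 6 SOX core matches, the most of any member with an entry. A match only describes the letters, and no match says nothing about the factor. Printed 5′ to 3′ with matches in capitals are the promoters of Cnp (chr11:100574689-100574938, + strand), Mag (chr7:30914923-30915172, - strand), Mog (chr17:37023399-37023648, - strand) and Mobp (chr9:120149492-120149741, + strand), the 4 sheath genes with an entry that were called lower and hold a match, of Cmtm5 (chr14:54936220-54936469, + strand), the member with the smallest p, and of Pdgfra (chr5:75152001-75152250, + strand), which was not called. Neither Cmtm5 nor Pdgfra held one of the motifs.
Cnp: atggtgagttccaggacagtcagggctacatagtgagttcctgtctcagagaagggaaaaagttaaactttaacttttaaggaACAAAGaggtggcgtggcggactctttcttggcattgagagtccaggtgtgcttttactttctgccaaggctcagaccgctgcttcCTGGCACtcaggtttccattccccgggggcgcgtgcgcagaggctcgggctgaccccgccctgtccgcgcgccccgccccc
Mag: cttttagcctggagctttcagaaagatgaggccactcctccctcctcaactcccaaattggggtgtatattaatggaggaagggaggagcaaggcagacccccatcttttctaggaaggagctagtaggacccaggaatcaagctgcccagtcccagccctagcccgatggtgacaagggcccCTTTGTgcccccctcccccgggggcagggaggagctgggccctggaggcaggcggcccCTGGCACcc
Mog: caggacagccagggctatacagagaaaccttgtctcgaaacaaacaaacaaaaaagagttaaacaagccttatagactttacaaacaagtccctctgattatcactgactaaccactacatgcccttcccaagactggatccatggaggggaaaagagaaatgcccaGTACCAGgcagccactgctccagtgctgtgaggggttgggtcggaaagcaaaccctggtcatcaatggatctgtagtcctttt
Mobp: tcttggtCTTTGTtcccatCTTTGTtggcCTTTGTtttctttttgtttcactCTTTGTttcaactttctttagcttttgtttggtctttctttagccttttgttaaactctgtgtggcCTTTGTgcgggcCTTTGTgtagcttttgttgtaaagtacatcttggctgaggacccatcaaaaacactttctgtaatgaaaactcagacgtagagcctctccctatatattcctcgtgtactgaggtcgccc
Cmtm5: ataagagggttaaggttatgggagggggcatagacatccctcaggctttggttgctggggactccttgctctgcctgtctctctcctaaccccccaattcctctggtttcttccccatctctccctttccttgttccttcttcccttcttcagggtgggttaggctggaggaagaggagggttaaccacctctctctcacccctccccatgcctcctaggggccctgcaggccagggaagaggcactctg
Pdgfra: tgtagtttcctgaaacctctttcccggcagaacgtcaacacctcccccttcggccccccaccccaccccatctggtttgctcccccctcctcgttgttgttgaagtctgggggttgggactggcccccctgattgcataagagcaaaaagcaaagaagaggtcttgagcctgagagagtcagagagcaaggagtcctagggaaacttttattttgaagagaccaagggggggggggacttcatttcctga

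The genotype difference was then taken within each treatment, on 3 against 3 mice. No member was called in either comparison by limma. The authors' own fit of counts called many more genes in both comparisons at the same adjusted p limit. In KO-Veh against WT-Veh mice, where 0.0283% of all genes were called, 35 members were negative (against 49.6% of all genes), with a median of -0.24, and 20 had an unadjusted p under 0.05 in the lower direction, compared with 7.68% of all genes. In KO-Mem against WT-Mem mice, where 0.068% of all genes were called, the median was -0.34 and 23 members had an unadjusted p under 0.05 in the lower direction, compared with 10.8%. The smallest adjusted p of a member was 0.134 in vehicle mice (Ermn, Tmem88b and Ugt8a) and 0.0642 in memantine mice (Cmtm5). KO mice did not overlap WT mice on the lower side for 20 members in vehicle, against 10.7% of all genes, and for 21 in memantine, against 13.5%. Without WT-Veh replicate 3 the vehicle median moved to -0.15. Without KO-Mem replicate 3, 22 members were called in memantine mice, 21 lower and 1 higher, where 10.8% of all genes were called, and without KO-Mem replicate 1 the median there moved to -0.24.

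These 2 comparisons share no mouse. Of the 37 members, 31 were lower in both, 16 had an unadjusted p under 0.05 and a lower level in both, and 15 had groups that did not overlap in both. The share of all genes that met each condition in both comparisons was not computed, so these joint counts have no background beside them. The size of the difference varied by gene. Bcas1 was at -0.45 in vehicle and -0.43 in memantine mice, Tmem88b at -0.46 and -0.44, and Qdpr at -0.53 and -0.51. Larger values in memantine mice were seen for Ugt8a, with -0.32 and -0.99, and for Trf, with -0.26 and -0.94. Apod and Nkx6-2 had opposite signs, -0.22 and 0.25 for Apod and -0.04 and 0.27 for Nkx6-2.

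**Figure D4:**
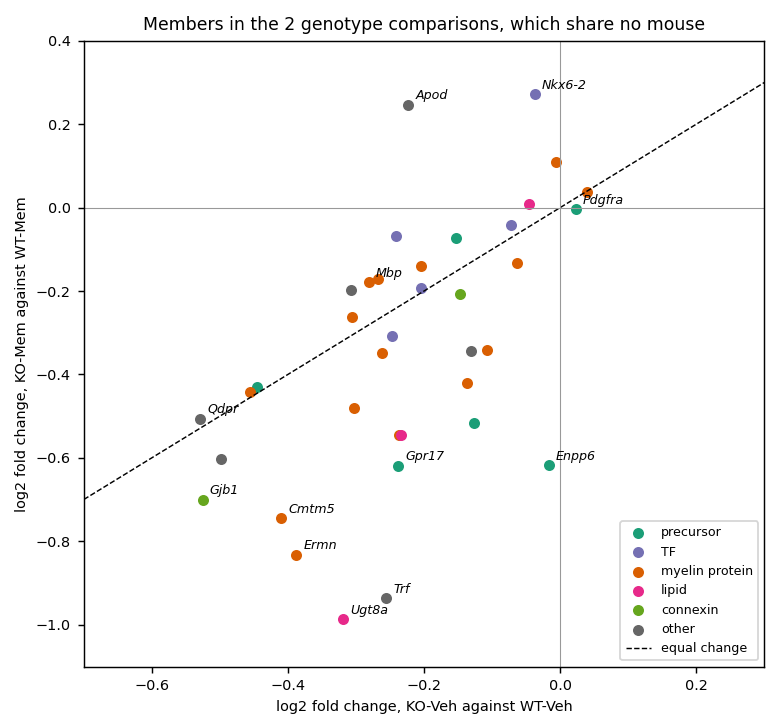
Each point is 1 of the 37 members, coloured by role, with the log2 fold change of KO-Veh against WT-Veh mice on the x axis and of KO-Mem against WT-Mem mice on the y axis, and the dashed line marks equal change. Both changes were negative for 31 members, and 21 had the larger drop in memantine mice, among them Ugt8a, Trf and Enpp6.

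Whether the genotype difference itself changed with treatment was tested as an interaction, (KO-Mem minus WT-Mem) minus (KO-Veh minus WT-Veh), over all 12 mice. No member was called by limma and no gene was called at all, 0% of those tested. At an unadjusted p under 0.05, 4 members were lower, compared with 2.34% of all genes. They were Enpp6 with -0.60 ± 0.19, Ugt8a with -0.67 ± 0.24, Trf with -0.68 ± 0.27 and Fa2h with -0.31 ± 0.14. In the other direction, which 2.41% of all genes took, was Apod, at 0.47 ± 0.20. The adjusted p was 0.947 for each of them, so none of them passed the test. Without KO-Mem replicate 3 there was 1 call, with 0.0227% of all genes.

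Memantine was compared with vehicle over both genotypes and within each. Over both, no member and no gene was called by limma (0% of all genes), although 36 of 37 members were negative (against 49.6% of all genes), with a median of -0.22. In the lower direction, 27 members had an unadjusted p under 0.05, compared with 5.05% of all genes. Tmem88b had the smallest unadjusted limma p, 5.89e-05, at a change of -0.38 ± 0.07 (adjusted p = 0.373). By role, the smallest p belonged to Bcas1 (-0.24) among precursor genes, Olig1 (-0.13) among transcription factors, Fa2h (-0.33) among lipid enzymes, Gjb1 (-0.47, the largest negative change of all members) among connexins and Gpr37 (-0.27) among the others. Aspa and Opalin, which were not called for genotype, were at -0.39 and -0.34 with memantine, and Sirt2 had the only positive value, 0.02. Without KO-Mem replicate 3, 7 members were called lower, with 0.68% of all genes called.

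Within KO mice, memantine gave 0 calls, as it did for 0% of all genes, and the smallest adjusted p of a member was 0.554. The median change was -0.29, 23 members had an unadjusted p under 0.05 on the lower side, compared with 4.54% of all genes, and 20 had all KO-Mem mice below all KO-Veh mice, compared with 6.82%. Trf was -0.75, Ugt8a -0.70, Ermn -0.65 and Cmtm5 -0.56, whereas Pdgfra was -0.03 and Apod 0.22. Without KO-Mem replicate 1 the median moved to -0.19, and without KO-Mem replicate 3 there were 7 calls, with 0.547% of all genes.

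Within WT mice there were again 0 calls among members, with 0.0114% of all genes called. The median was -0.17, 35 members were negative (against 50% of all genes), 11 had an unadjusted p under 0.05 on the lower side, compared with 2.47% of all genes, and 8 did not overlap, compared with 5.19%. Tmem88b was -0.39, Aspa -0.42 and Opalin -0.37, whereas Ugt8a was -0.04 and Gpr17 0.05. Without WT-Veh replicate 3 the median was -0.12. The memantine comparisons share mice with the genotype comparisons, so these values stand side by side and are not a separate test.

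The largest median difference lay between the groups that differed in both genotype and treatment. In KO-Mem against WT-Veh mice, 20 of 37 members were called lower and 0 higher, where 3.37% of all genes were called and 2.05% were called lower. The median was -0.50, and in 30 members the groups did not overlap, compared with 15.6% of all genes. Gjb1 fell by 1.09 ± 0.19 (adjusted p = 0.0287), Ugt8a by 1.02 ± 0.20 (adjusted p = 0.0332), Trf by 1.01 ± 0.22 (adjusted p = 0.0422) and Cmtm5 by 0.97 ± 0.12 (adjusted p = 0.0222). Ermn, at -1.03 ± 0.25 (adjusted p = 0.0502), was just outside the threshold. Lpar1 at -0.65 ± 0.15 (adjusted p = 0.0473), Mal at -0.31 ± 0.06 (adjusted p = 0.0335), Opalin at -0.51 ± 0.10 (adjusted p = 0.0328) and Evi2a at -0.60 ± 0.13 (adjusted p = 0.0432) were called here and not in the genotype contrast. The genotype contrast and this comparison share mice and had 16 called members in common, out of 24 called in either.

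This comparison rested on few animals. With WT-Veh replicate 2, WT-Veh replicate 3, KO-Mem replicate 1 or KO-Mem replicate 2 left out, 0 members were called, with at most 4 of all genes, and without WT-Veh replicate 1 there were 6, with 0.305% of all genes. Without KO-Mem replicate 3 there were 24, with 14.1% of all genes. The median stayed at or below -0.39 in each of these fits. In WT-Mem against KO-Veh mice, 0 members were called, as were 0.0227% of all genes, and the median was 0.07, or 0.01 without WT-Mem replicate 3. At an unadjusted p under 0.05, 7 members were higher in WT-Mem and 1 was lower, compared with 4.71% and 4.23% of all genes. Ugt8a (0.28) and Gpr17 (0.29) had the largest positive values there, with all WT-Mem mice above all KO-Veh mice, and Aspa (-0.37) the most negative.

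Other genes of the lineage were taken from 3 further lists. These lists were chosen with earlier results of these data known and were measured in the same mice, so they are not a separate test. Of 19 other mature oligodendrocyte genes, all 19 were negative in the genotype contrast (against 49.1% of all genes) and 9 were called lower (against 5.73%), with a median of -0.25. S1pr5, a sphingosine phosphate receptor, had the smallest p of this list, with -0.54 ± 0.09 (adjusted p = 0.00766). Klk6, a protease, fell by 1.04 ± 0.24 (adjusted p = 0.019). Gsn (-0.59), Gal3st1 (-0.38), Enpp2 (-0.37), Cntn2 (-0.28) and Adamts4 (-0.24) were also among those called.

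Of 12 other precursor genes, 2 were called lower and 1 higher, against 5.73% and 4.79% of all genes, with a median of -0.13. Rlbp1, a retinal-binding protein, changed by -0.49 ± 0.14 (adjusted p = 0.0366) and Nkx2-2, a homeodomain factor of committing precursors, at -0.32 ± 0.09 (adjusted p = 0.0386). Vcan, a proteoglycan of the matrix around precursors, rose by 0.19 ± 0.05 (adjusted p = 0.0375). Of 20 signals and regulators of the lineage, 0 were called by limma (4 lower and 1 higher at an unadjusted p under 0.05), and the median was 0.00. For the genotype contrast, no share of all genes at an unadjusted p under 0.05 is given here or below. The smallest p in that list belonged to Sox17, at -0.48 ± 0.15 (adjusted p = 0.0502).

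Markers of other cell types moved in part with the same groups. In the genotype contrast, 5 of 7 endothelial genes were called lower, as were 2 of 8 astrocyte genes, 1 of 8 microglial genes, 1 of 8 neuronal genes and 0 of 5 choroid plexus genes (1 at an unadjusted p under 0.05), and no marker of these lists was called higher. Of all genes, 5.73% were called lower and 4.79% higher. The lists' medians were -0.23 for endothelium, -0.10 for astrocytes, -0.23 for microglia, -0.02 for neurons and -0.24 for choroid plexus, beside -0.28 for the 37 members. Aqp4, the water channel of astrocyte endfeet, measured 3875, 4690.4 and 4209 for WT-Veh, 3918, 3462 and 3489 for WT-Mem, 2627, 3595 and 2971 for KO-Veh, and 2036, 2148 and 2826 for KO-Mem. KO-Mem replicates 1 and 2 were the lowest, 1 KO-Veh mouse reached the WT-Mem range, and it fell by 0.56 ± 0.09 (adjusted p = 0.00654). P2ry12 of microglia (-0.51), Cldn5 of endothelium (-0.30), Gja1 of astrocytes (-0.22) and Nefl of neurons (-0.22) were also called.

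The mean log2 deviation of the microglial list was 0.01 to 0.31 in WT-Veh and -0.41 to 0.02 in KO-Mem mice, and that of the endothelial list 0.15 to 0.23 in WT-Veh, 0.02 to 0.06 in WT-Mem, -0.14 to -0.07 in KO-Veh and -0.21 to -0.05 in KO-Mem. For neurons it was -0.08 to 0.06 in WT-Veh, 0.06 to 0.07 in WT-Mem, -0.04 to 0.02 in KO-Veh and -0.11 to 0.01 in KO-Mem mice. For choroid plexus it was -0.07 to 0.35 in WT-Veh, 0.05 to 0.13 in WT-Mem, -0.19 to 0.29 in KO-Veh and -0.60 to 0.08 in KO-Mem. The endothelial list separated the genotypes, and the neuronal list overlapped between genotypes in vehicle mice but lay higher in all WT-Mem than in all KO-Mem mice, with 4 of 8 neuronal genes not overlapping there, against 13.5% of all genes. A list of 4 genes of peripheral, Schwann cell myelin had 0 calls in the genotype contrast by limma, 3 genes with an unadjusted p under 0.05 on the lower side and a median of -0.56. Its mean deviation was lowest in KO-Mem replicates 1 and 2, at -1.09 and -0.88, and highest in KO-Veh replicate 3. Within KO-Veh it ran from -0.43 to 1.00. In KO-Mem against WT-Mem mice, 3 of these 4 genes passed the filter on low values. The part of these shifts in the members' differences was not tested. Genes of the cerebellum and hindbrain summed to 1438 normalized counts in KO-Veh replicate 3, 216 in WT-Mem replicate 3 and 185 in WT-Veh replicate 3. The remaining mice had 35.6 to 94.5. WT-Mem replicate 3 and WT-Veh replicate 3 also had the highest mean deviation of the 37 members in their groups, 0.14 and 0.29. The part of these sums in the members' differences was not tested.

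**Figure D5:**
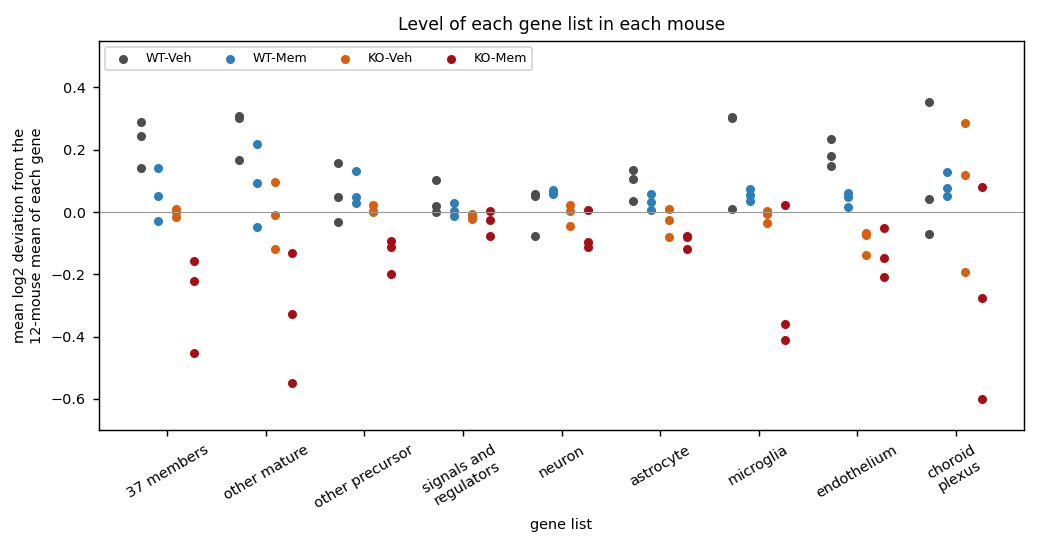
Mean log2 deviation from the 12-mouse mean of each gene (y axis) for the 37 members and 8 other gene lists (x axis), with 1 point per mouse coloured by group. KO-Mem mice lie lowest for the 37 members (-0.45 to -0.16), for other mature oligodendrocyte genes (-0.55 to -0.13) and for other precursor genes (-0.20 to -0.09). The neuronal points stay within -0.11 and 0.07.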

How the data were processed

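RNA of 12 mice was sequenced and, per the labels and methods, the authors quantified reads with Salmon 1.1.0 on GRCm38 transcripts, summed them to genes and normalized the estimated counts with DESeq2 1.26.0 (the version in the submitters' processing notes). The deposited values are a signal per gene and mouse, that is estimated counts divided by normalization factors that differ by gene, so raw counts could not be recovered, no count model was run and counting error is unknown. Precision therefore rests on the spread between 3 mice per group. Values were taken as log2(value + 1), a gene entered a fit where its mean there reached 10, and limma 3.58.1 (R 4.3.3, variance prior with a trend) was fitted over all genes with Benjamini-Hochberg adjustment and a threshold of 0.05. Each pair of groups was fitted on its own 6 mice, and the contrasts over both treatments, over both genotypes and the interaction on all 12. Symbols, positions and exon lengths came from GENCODE M21 (GRCm38), a release not stated by the authors. The procedure was tested on simulated data. Members and lists were chosen with earlier results of these data known. Values in every mouse are given for the highest gene per kilobase and the smallest p of each role in the genotype and memantine contrasts, every called member, the largest changes, and Pdgfra, Gpr17, Olig2, Myrf, Mbp and Mog; other lists' genes are named where called or smallest in p, and some of these are not reported here. Replicate numbers did not mark shared litters in the labels. Alternatives were pseudocount, filter, variance prior, scaling, a replicate block, joint fitting and leaving out mice. No sample or column was left out.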

Additional observations from a re-analysis of the deposited data

How the results depend on the processing

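With a variance prior without a trend, 11 members were called in the genotype contrast and 0 in KO-Mem against WT-Veh mice, and 670 and 7 of all genes were called in place of 1856 and 595. With all 12 mice fitted together, 16 members and 636 of all genes were called in KO-Mem against WT-Mem mice, in place of 0 and 12. The same joint fit called 26 members and 2067 of all genes in KO-Mem against WT-Veh, in place of 20 and 595. Without both WT-Veh replicate 3 and KO-Veh replicate 3, an alternative added after the data were seen, 4 members were called in the genotype contrast, with 74 of all genes, and Tspan2 changed sign to -0.0031. Another pseudocount, filter or scaling kept the 20 genotype calls, with 9.27% to 13.2% of all genes called. Leaving out 1 mouse gave 13 to 23 calls in the genotype contrast, where 2.99% to 18.5% of all genes were called. It gave 0 to 24 in KO-Mem against WT-Veh (0.00567% to 14.1% of all genes) and 0 to 22 in KO-Mem against WT-Mem (0.0113% to 10.8%). In KO-Mem against KO-Veh it gave 0 to 7 (0% to 0.547%), for memantine over both genotypes 0 to 7 (0% to 0.68%) and for the interaction 0 to 1 (0% to 0.0227%). The highest count of each came without KO-Mem replicate 3. In the same fits the median of the members ran from -0.40 to -0.24 in KO-Mem against WT-Mem, -0.32 to -0.19 in KO-Mem against KO-Veh, -0.51 to -0.39 in KO-Mem against WT-Veh, -0.26 to -0.15 in KO-Veh against WT-Veh, -0.23 to -0.12 in WT-Mem against WT-Veh and 0.01 to 0.10 in WT-Mem against KO-Veh. The members Pdgfra, Apod and Aspa, near 0, changed sign in the genotype contrast, with ranges of -0.0228 to 0.0415 (Pdgfra), -0.0454 to 0.1046 (Apod) and -0.0854 to 0.0453 (Aspa). The cause of these changes was not tested. Same-numbered mice of different groups did not deviate together (correlations of -0.175 to 0.08, against -0.136 to 0.179 for other pairs), so the numbers were not taken as pairing. With the replicate block, 21 members were called in the genotype contrast (19 shared with the 20), with 9.79% of all genes. In KO-Mem against WT-Veh that block gave 24, with 5.66% of all genes in place of 3.37%. With 3 mice per group and unknown depth, small differences may be missed.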
